A study of Penicillium oxalicum with 12 samples.

Results

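The respiratory chain and ATP synthase genes of the filamentous fungus Penicillium oxalicum were taken as the genes of the deposited expression table whose single KEGG Orthology name (the name of a group of equivalent genes across species) contains NADH dehydrogenase, succinate dehydrogenase, ubiquinol-cytochrome c reductase, cytochrome c oxidase, F-type ATPase, cytochrome c1 or ubiquinone biosynthesis. This rule, which uses no expression value, found 83 of 9931 genes, and all 83 passed the filter on low values (FPKM of 1 or more in at least 3 of the 12 libraries), as did 9431 genes in all. The 83 genes comprised 21 subunits of complex I, 2 genes named only as NADH dehydrogenase (EC 1.6.99.3), 6 subunits of complex II, 7 of complex III, 7 of complex IV and 14 of ATP synthase. A further 19 were assembly factors of the complexes and 7 were ubiquinone biosynthesis genes. Each gene is called by its locus identifier, and names are those of KEGG, not the outcome of a functional test. For 7 of the 83 genes the table also holds a protein description other than hypothetical or uncharacterized, and 5 of these 7 name the same complex. The exceptions were PDE_03732, described as a DUF185 domain protein, and PDE_05197, whose KEGG name is Coq6 but whose description is PIL1, a sphingolipid-responsive protein.

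The complexes sit in the inner mitochondrial membrane. Complexes I and II pass electrons from NADH and succinate to ubiquinone, complex III passes them on to cytochrome c, and complex IV reduces oxygen with them. Complexes I, III and IV pump protons, and ATP synthase uses the returning protons to make ATP. Some subunits of the complexes are encoded by the mitochondrial genome in fungi; no gene named as one of the catalytic core subunits 1, 2 or 3 of complex IV was among the 83, and such genes were not analysed here.

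The study compared 4 strains with 3 libraries each. They were the wild type 114-2 (WT), a strain lacking laeA (DlaeA), and strains whose histone H2B has alanine in place of lysine 123 (H2BK123A) or lysine 131 (H2BK131A). LaeA is a putative methyltransferase that controls secondary metabolism and development in filamentous fungi, and H2B is a core histone. All strains had been pre-grown from conidia for 22 h at 30 °C on 2% glucose, and their mycelia were harvested 24 h after transfer to Mandel's medium with 2% glucose. The labels do not say from how many transformants a mutant strain came, whether another H2B allele remained in the point mutants, or whether replicate libraries were grown as separate cultures; p-values therefore rest on the spread among these libraries alone, and that spread may be technical.

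The values are FPKM, read fragments per kilobase of a gene and scaled to library size, without counts, so the depth behind them is unknown. FPKM summed to 709484 to 764699 per library. PDE_00584, the locus recalled from published work as laeA, was at 34.9, 37.9 and 33.9 in WT and at 0.0533 ± 0.0551 (SD, n = 3) in DlaeA, while a codon change in H2B cannot be seen in such values. A test compared log2(FPKM + 1) between strains with limma, and a gene was called higher or lower at a Benjamini-Hochberg adjusted p under 0.05 over all 9431 tested genes. All fold changes below are differences on the log2(FPKM + 1) scale ± SE; on this scale, changes of genes with low FPKM come out too small. WT enters all 3 comparisons of a mutant with WT, so these are given side by side and their likeness is not tested. As these are bulk samples, fewer cells of a type and less RNA per cell cannot be told apart.

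In H2BK131A, 74 of the 83 genes were higher than in WT, 1 was lower and 8 were not called, with a median log2 fold change of 0.84 against 0.13 over all tested genes. Of all tested genes, 40.6% were called higher and 30.2% lower in this comparison. In H2BK123A, 9 of the 83 were higher, 8 lower and 66 not called, with a median of -0.02 against 0.18 over all tested genes, of which 33.5% were called higher and 13.1% lower. In DlaeA, 15 were higher, 36 lower and 32 not called, with a median of -0.23 against 0.27 over all tested genes, of which 46.3% were called higher and 23.6% lower. The share called lower in DlaeA, 43.4%, thus lay above the 23.6% of all tested genes, and the share called higher, 18.1%, lay below 46.3%. In H2BK131A the share called higher was 89.2%. The 3 H2BK131A libraries lay wholly above the 3 WT libraries for 73 members and wholly below for 1, which 40.7% and 29.9% of all tested genes did.

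The counts for DlaeA and H2BK123A depended on how libraries were scaled. The median of all tested genes lay above WT in both mutants in the deposited values. With scaling by median ratio, which moved the median of all genes in DlaeA against WT from 0.27 to 0.02, 4 members were higher and 54 lower in DlaeA, and with quantile normalization 10 were higher and 38 lower. For H2BK123A the same settings gave 5 higher and 28 lower, and 6 higher and 20 lower. For H2BK131A they gave 66 higher and 1 lower, and 58 higher and 2 lower. Measured from the all-gene median, the members' median was -0.50 in DlaeA, -0.20 in H2BK123A and 0.71 in H2BK131A as deposited, and -0.52, -0.23 and 0.70 with median ratio scaling. That scaling divides all genes of a library by the same factor, so the likeness of these values was nearly fixed in advance. Quantile normalization can change the difference. It put the all-gene median at 0.09 in DlaeA, -0.00 in H2BK123A and 0.00 in H2BK131A. The members' median in H2BK131A was then 0.58, and those of the other mutants are given with the processing alternatives.

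**Figure D1:**
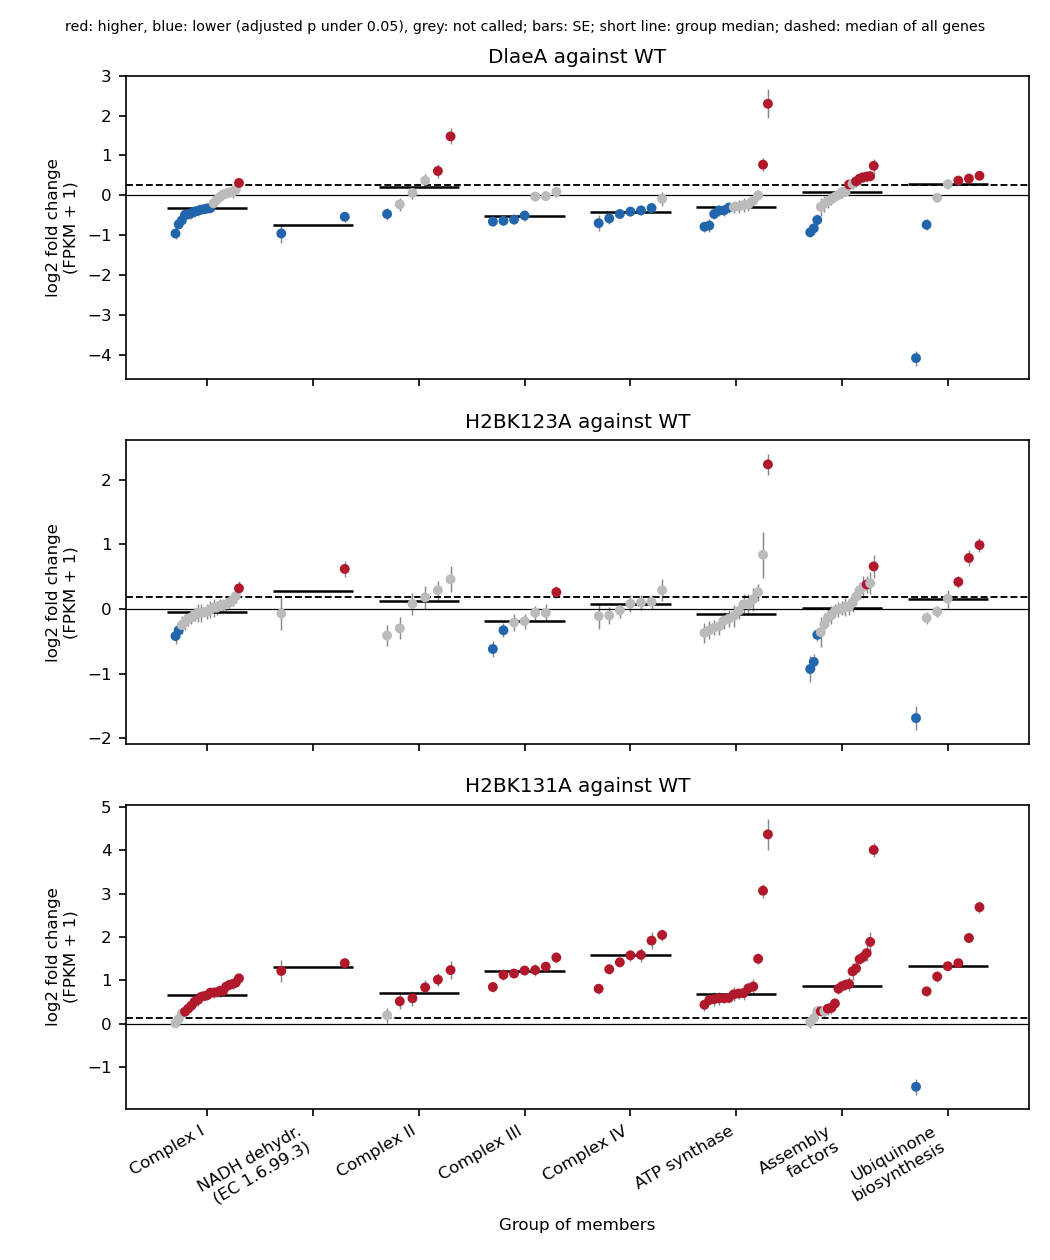
Log2 fold change of FPKM + 1 (vertical axis) of each member against WT, by group of members (horizontal axis), in DlaeA, H2BK123A and H2BK131A; points are genes with SE bars, coloured by call, short lines are group medians and the dashed line is the median of all tested genes. In H2BK131A every group median lies above the dashed line at 0.13, from 0.66 in complex I to 1.58 in complex IV, while in DlaeA the medians of complexes I, III and IV and of ATP synthase lie below 0.

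H2BK131A had the highest strain mean for 76 of the 83 genes, 91.6%, against 32.4% of all tested genes. Its 3 libraries lay above all 9 other libraries for 68 of the 83, 81.9%, against 23.6% of all tested genes; these 68 included all 7 genes of complex III, all 7 of complex IV, all 14 of ATP synthase and 18 of 21 of complex I, but 3 of 6 of complex II and 4 of 7 of ubiquinone biosynthesis. DlaeA had the lowest strain mean for 47 of the 83 genes, 56.6%, against 24.0% of all tested genes. Members were among the more highly expressed genes in each strain: the median member was at FPKM 99.1 in WT, 78.6 in DlaeA, 91.8 in H2BK123A and 158 in H2BK131A, against 21.9, 24.7, 24.2 and 22.2 for all genes, tested or not.

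Together the 83 genes held 1.53%, 1.66% and 1.63% of the summed FPKM of the WT libraries and 3.36%, 3.41% and 3.55% of that of the H2BK131A libraries. In DlaeA they held 1.24%, 1.62% and 1.58%, and in H2BK123A 1.67%, 1.49% and 1.51%. In this share the DlaeA and H2BK123A libraries overlapped with WT and the H2BK131A libraries did not. One gene, the ATP synthase subunit c gene PDE_07836, held 0.753% ± 0.0413 of the H2BK131A libraries on its own (SD, n = 3). Without it the other 82 genes held 1.51%, 1.62% and 1.56% in WT and 2.65%, 2.65% and 2.76% in H2BK131A. Such sums depend on the gene lengths that the authors used.

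**Figure D2:**
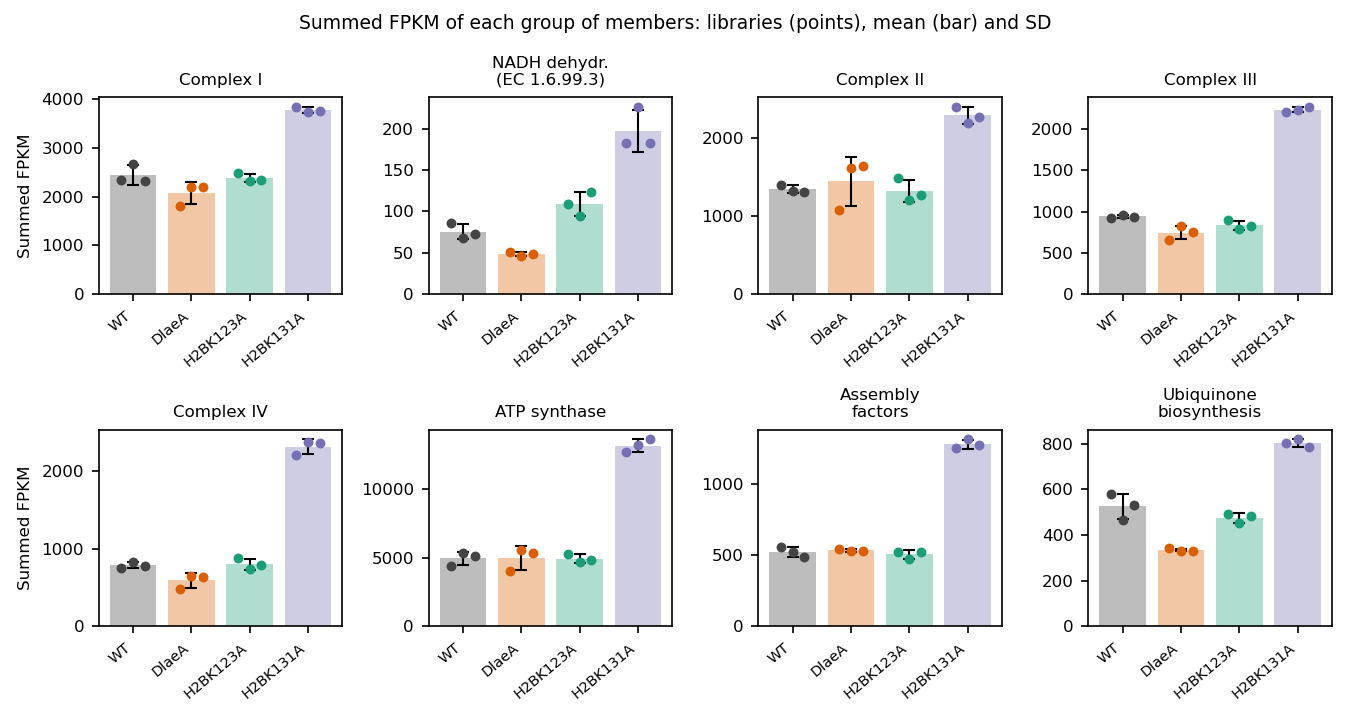
Summed FPKM (vertical axis, linear from 0) of each group of members in the 4 strains; points are libraries, bars the mean of 3 and error bars the SD. The 3 H2BK131A libraries stand above the other 9 in all 8 groups; complex IV, for example, summed to 2319.6 ± 97.5 in H2BK131A and 787 ± 40.7 in WT.

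Complex I, the large NADH-oxidising proton pump, had 18 of its 21 subunit genes higher in H2BK131A than in WT and none lower, with a median of 0.66 and a range of 0.01 to 1.05; quantile normalization gave 13 higher and 1 lower. PDE_02665, named as subunit 1 of the alpha/beta subcomplex (the acyl carrier protein of the complex), rose most. It was at FPKM 126, 145 and 119.5 in WT and at 292, 262 and 254 in H2BK131A, with no overlap, and differed by 1.05 ± 0.10 on the log2 scale (limma, adjusted p = 2.00e-06). In DlaeA and H2BK123A it was at 126 ± 2.33 and 135 ± 6.22 (SD, n = 3), against 130.1 ± 13.4 in WT, and was not called, but it was lower in DlaeA with median ratio scaling (-0.32, adjusted p = 0.00204).

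The 3 complex I genes that were not called in H2BK131A against WT were PDE_02035, PDE_09691 and PDE_01109, named as beta subcomplex subunits 7 and 3 and alpha subcomplex subunit 6. PDE_02035 was at 101 ± 5.65 in WT and 101 ± 1.43 in H2BK131A (SD, n = 3). All 3 were lower in DlaeA than in WT, by -0.35, -0.49 and -0.32. PDE_09088, named as Fe-S protein 7, rose in H2BK131A (0.35 ± 0.10, adjusted p = 0.00693), but not with median ratio scaling (0.18, adjusted p = 0.119) or quantile normalization (0.08, adjusted p = 0.457).

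In DlaeA, 12 complex I genes were lower than in WT, 1 was higher and 8 were not called, with a median of -0.33. Without DlaeA replicate 1, 8 were lower and 2 higher with a median of -0.21, and with median ratio scaling 16 were lower and none higher with a median of -0.61. PDE_08809, named as Fe-S protein 3, one of the core subunits of the arm that reaches into the matrix, was at 129, 155 and 137 in WT and at 58.0, 77.5 and 80.2 in DlaeA. The strains did not overlap, and it fell by 0.96 on the log2 scale (SE 0.13, adjusted p = 3.41e-05). Next by size was PDE_03464, alpha subcomplex subunit 2, which went from 70.0 ± 3.95 in WT to 41.6 ± 1.80 in DlaeA (SD, n = 3; -0.73 ± 0.09, adjusted p = 2.43e-05). The gene called higher in DlaeA, PDE_09088 (0.31, adjusted p = 0.0156), lost its call under median ratio scaling (0.03, adjusted p = 0.825).

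In H2BK123A, 1 complex I gene was higher, 2 were lower and 18 were not called. PDE_08809 was lower here too, at 104, 101 and 109 (-0.42 ± 0.13, adjusted p = 0.0177). Leaving out H2BK123A replicate 1 or 2 ended that call (adjusted p = 0.0502 and 0.0555). PDE_09116, named as Fe-S protein 1, the subunit with the most iron-sulfur clusters in the complex of other species, was higher (0.32 ± 0.11, adjusted p = 0.0317), a call lost under 8 alternatives, both other scalings among them. With median ratio scaling, 8 complex I genes were lower and none higher.

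Both genes named as NADH dehydrogenase (EC 1.6.99.3), a name that does not place them in complex I, were higher in H2BK131A and lower in DlaeA than in WT. PDE_06939 was at 65.6, 58.5 and 63.5 in WT, at 45.4, 40.9 and 42.3 in DlaeA, at 97.6, 83.0 and 112 in H2BK123A and at 158, 188 and 157 in H2BK131A. No 2 strains overlapped, and H2BK123A lay between WT and H2BK131A. Its log2 fold changes against WT were -0.54 ± 0.12, 0.62 ± 0.12 and 1.40 ± 0.12 in DlaeA, H2BK123A and H2BK131A (adjusted p = 0.00178, 0.00147 and 7.43e-07). PDE_00323 was lower in level, at 19.9, 9.79 and 8.85 in WT and at 24.5, 39.1 and 26.5 in H2BK131A (1.22 ± 0.25, adjusted p = 9.26e-04).

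Complex II, succinate dehydrogenase, is both a respiratory complex and an enzyme of the citric acid cycle, and in DlaeA 2 of its 6 genes were higher and 1 was lower. In H2BK131A 5 of its 6 genes were higher than in WT and none lower, with a median of 0.72. The flavoprotein gene PDE_01648, which carries the FAD that oxidises succinate, was at 199.6, 207 and 195 in WT and at 383, 411 and 429 in H2BK131A (1.02 ± 0.15, adjusted p = 7.54e-05). The groups did not overlap. The second gene with the flavoprotein name, PDE_09834, was at 42.0 ± 11.5 in WT and 47.7 ± 6.04 in H2BK131A (SD, n = 3), with overlapping libraries, and was not called (0.20 ± 0.17, adjusted p = 0.289) unless WT replicate 1 was left out (0.41, adjusted p = 0.0136).

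The iron-sulfur subunit gene PDE_07264 was at 317, 311 and 307 in WT, at 343, 542 and 574 in DlaeA and at 453, 444 and 444 in H2BK131A. It was called higher in both mutants (0.61 ± 0.18, adjusted p = 0.00916, and 0.52 ± 0.18, adjusted p = 0.0195). With median ratio scaling neither call remained (0.32 and 0.35, adjusted p = 0.148 and 0.118).

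The 2 genes named as the cytochrome b560 subunit, which anchors the enzyme in the membrane, went opposite ways in DlaeA. PDE_09195 was at 579.6, 521 and 539.8 in WT and at 322, 448 and 429 in DlaeA (-0.47 ± 0.16, adjusted p = 0.0246), and leaving out DlaeA replicate 1 ended that call (-0.32, adjusted p = 0.103). PDE_09828 was at 43.8, 34.1 and 36.9 in WT and at 72.0, 129 and 134 in DlaeA (1.48 ± 0.20, adjusted p = 4.66e-05). Both were higher in H2BK131A, by 0.84 ± 0.16 and 1.24 ± 0.20. In H2BK123A no complex II gene passed the adjusted threshold in limma; 2 had an unadjusted p under 0.05, and 2 were called lower with median ratio scaling.

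Complex III, which moves electrons from ubiquinol to cytochrome c, was higher in H2BK131A for all 7 genes, with a median of 1.23 and a range of 0.85 to 1.53. The iron-sulfur (Rieske) subunit gene PDE_07286 changed most. Its levels were 159.7, 166 and 162 in WT, 86.3, 124 and 112 in DlaeA, 143, 138 and 147 in H2BK123A, and 459.9, 461 and 489.5 in H2BK131A. The 4 strains did not overlap. It rose by 1.53 ± 0.12 in H2BK131A (adjusted p = 4.72e-07) and fell by 0.61 in DlaeA (SE 0.12, adjusted p = 8.97e-04), while in H2BK123A it was called lower with the other scalings (-0.40 and -0.34, adjusted p = 0.0270 and 0.0471) but not as deposited (-0.19, adjusted p = 0.235). The cytochrome c1 gene PDE_04530, the highest of the 7 over all libraries, was at 192, 207 and 214 in WT and at 477, 509 and 547 in H2BK131A (1.32 ± 0.11, adjusted p = 7.98e-07).

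In DlaeA, 4 of the 7 complex III genes were lower and none higher, with a median of -0.51; median ratio scaling gave 6 lower and a median of -0.79. PDE_00191, named as subunit 8, a small subunit that in yeast contacts the catalytic core, was at 163, 141 and 137 in WT and at 83.8, 98.9 and 95.1 in DlaeA (-0.66 ± 0.12, adjusted p = 4.71e-04). It was lower in H2BK123A as well, at 109, 83.7 and 93.6 (-0.62 ± 0.12, adjusted p = 0.00170), and was at 290.2, 259 and 249 in H2BK131A. WT overlapped with none of the 3 mutants. PDE_06136, named as subunit 7, was called higher in H2BK123A (0.26 ± 0.09, adjusted p = 0.0379), a call lost with median ratio scaling (0.05, adjusted p = 0.709).

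Complex IV, cytochrome c oxidase, had the largest median of the 5 complexes in H2BK131A, 1.58, with all 7 genes higher and 6 of them by 2-fold or more. Of all tested genes, 19.9% were called higher by 2-fold or more. PDE_07280, named as subunit 4, a nuclear-encoded subunit that in animals binds ATP and adjusts activity, was at 119.7, 130.1 and 131 in WT and at 477, 561 and 555 in H2BK131A (2.05 ± 0.13, adjusted p = 7.68e-08). The lowest H2BK131A library was above the highest of the other 9, which was 157 in H2BK123A. PDE_09876, subunit 5a, went from 102 ± 9.06 to 387 ± 5.76 (SD, n = 3; 1.92 ± 0.20, adjusted p = 4.19e-06). PDE_03638, subunit 7c, which had the highest mean of the 7 over the 12 libraries pooled but neither in WT nor in H2BK131A, went from 164 ± 1.95 to 496 ± 43.6 (SD, n = 3; 1.58 ± 0.13, adjusted p = 4.23e-07).

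In DlaeA, 6 of the 7 complex IV genes were lower than in WT and none higher, with a median of -0.41. PDE_09876 fell most, to 42.7, 70.4 and 79.6 from 94.5, 112 and 98.5 in WT (-0.70 ± 0.20, adjusted p = 0.00838). PDE_07280 fell to 73.2, 92.2 and 90.0 (-0.58 ± 0.13, adjusted p = 0.00209). Leaving out DlaeA replicate 1, the lowest of its strain for these genes, left 5 of 7 called; median ratio scaling gave 6 lower with a median of -0.69. In H2BK123A no complex IV gene was called in limma as deposited or with the other scalings, and none had an unadjusted p under 0.05; the group median was 0.08.

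**Figure D3:**
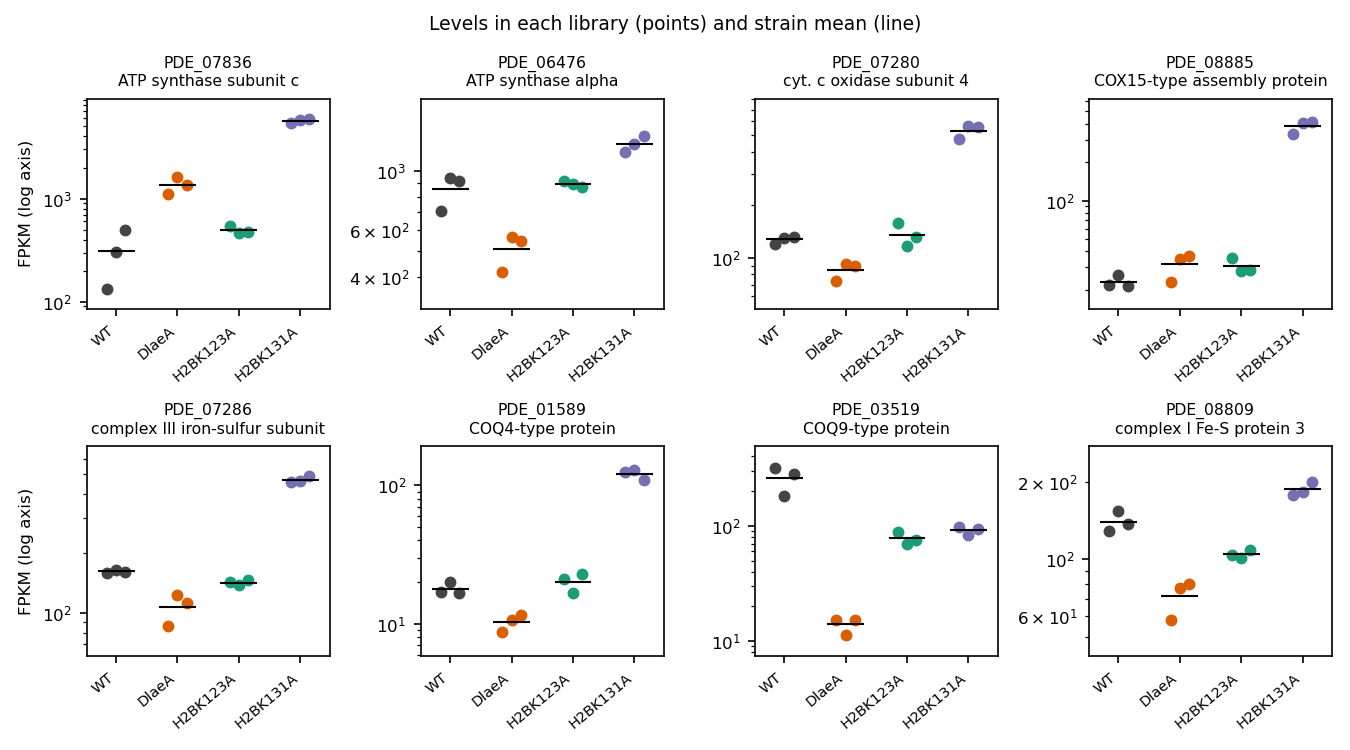
FPKM (vertical axis, logarithmic) of 8 members in each of the 12 libraries (points) with the strain mean (line), by strain. PDE_07836 and PDE_08885 show the widest gap between H2BK131A and WT, and PDE_03519 is the gene shown for which WT is the highest strain.

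ATP synthase makes ATP in its catalytic head of alpha and beta subunits, which is driven by a rotating ring of c subunits in the membrane. All 14 of its genes were higher in H2BK131A than in WT, with a median of 0.69. Median ratio scaling left 13 called higher and quantile normalization 7, with medians of 0.51 and 0.36, and none was called lower. The beta subunit gene PDE_07279 was at 558, 753 and 687 in WT and at 1108, 1204 and 1302 in H2BK131A (0.86 ± 0.18, adjusted p = 9.06e-04). Without overlap, the alpha subunit gene PDE_06476 went from 709, 941 and 919.7 to 1176, 1263 and 1355 (0.57 ± 0.16, adjusted p = 0.00725).

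In H2BK131A against WT, the gene for subunit c, PDE_07836, changed more than any other member. It was at 134, 305 and 500.3 in the WT libraries, which differed widely among themselves, at 1111, 1615 and 1369 in DlaeA, at 546, 459 and 472 in H2BK123A and at 5399.9, 5798 and 5909 in H2BK131A. H2BK131A lay above DlaeA, and DlaeA above the remaining 6 libraries. The log2 fold changes against WT were 4.37 ± 0.36 in H2BK131A (adjusted p = 5.77e-07) and 2.30 ± 0.36 in DlaeA (adjusted p = 1.41e-04). In H2BK123A the change of 0.84 ± 0.36 was not called (adjusted p = 0.0751), but it was without WT replicate 3, the highest WT library (1.27, adjusted p = 0.00787).

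The second gene with the alpha subunit name, PDE_01144, was at 6.14, 7.63 and 4.66 in WT, at 12.3, 10.6 and 10.1 in DlaeA, at 33.5, 27.9 and 36.0 in H2BK123A and at 55.6, 66.4 and 52.7 in H2BK131A. The 4 strains did not overlap, in the order WT, DlaeA, H2BK123A and H2BK131A. It rose in all 3 mutants, by 0.77 ± 0.16, 2.24 ± 0.16 and 3.07 ± 0.16 (adjusted p = 0.00116, 2.44e-06 and 1.54e-08). PDE_06476, by contrast, fell by 0.76 in DlaeA (SE 0.16, adjusted p = 0.00130) and was not called in H2BK123A (0.07 ± 0.16, adjusted p = 0.753). Even in H2BK131A, PDE_01144 was at 58.3 ± 7.22 per kilobase against 1265 ± 89.8 for PDE_06476 (SD, n = 3).

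In DlaeA, 6 ATP synthase genes were lower, 2 were higher and 6 were not called, with a median of -0.29. The 2 higher ones were PDE_07836 and PDE_01144. PDE_03014, named as the delta subunit of the rotor stalk, fell most, from 161 ± 10.5 in WT to 93.2 ± 15.7 in DlaeA (SD, n = 3; -0.79 ± 0.12, adjusted p = 1.11e-04). Without DlaeA replicate 1, 3 were lower and the median was -0.11, and with median ratio scaling 12 were lower and the median was -0.57. In H2BK123A, PDE_01144 was the only one of the 14 called as deposited, and 6 were called lower with median ratio scaling.

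The 19 assembly factors build the complexes and are not part of the finished enzymes. In H2BK131A 15 were higher than in WT, none lower and 4 not called, with a median of 0.87. PDE_08885, named as subunit 15 of cytochrome c oxidase assembly, which in yeast makes the heme A of complex IV, was at 21.8, 26.0 and 21.4 in WT, at 23.2, 34.8 and 37.1 in DlaeA, at 35.7, 28.0 and 28.4 in H2BK123A and at 335, 405 and 416 in H2BK131A. The H2BK131A libraries lay far above the other 9. DlaeA overlapped with both WT and H2BK123A, which did not overlap with each other. The log2 fold change of PDE_08885 in H2BK131A, 4.01 ± 0.17 (adjusted p = 3.80e-09), was the second largest among the members. The call in DlaeA (0.42 ± 0.17, adjusted p = 0.0456) was lost under 11 alternatives.

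PDE_01659, subunit 17, a copper carrier for complex IV in yeast, rose from 19.1 ± 5.73 to 71.8 ± 6.92 in H2BK131A (SD, n = 3; 1.89 ± 0.23, adjusted p = 1.48e-05). The 4 assembly factors not called in H2BK131A were PDE_05146, PDE_03716, PDE_05000 and PDE_03670. PDE_05000, assembly factor 6, was at 36.0 ± 4.05 in WT and 36.9 ± 4.26 in H2BK131A, and at 50.7 ± 7.13 in DlaeA (SD, n = 3). It was the one member called lower in H2BK131A than in DlaeA in the deposited scaling with all libraries (-0.44 ± 0.13, adjusted p = 0.00829). Leaving out DlaeA replicate 1 made the complex II genes PDE_07264 (-0.32, adjusted p = 0.0375) and PDE_09828 (-0.52, adjusted p = 0.00305) lower as well, and quantile normalization did so for PDE_07264 (-0.53, adjusted p = 0.0215).

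In DlaeA 7 assembly factors were higher, 3 lower and 9 not called, with a median of 0.08; with median ratio scaling 1 was higher and 7 lower, and the median was -0.19. PDE_03223, named as subunit 11, which in yeast delivers copper to complex IV, fell in DlaeA and in H2BK123A. It was at 57.0, 38.0 and 48.9 in WT, 25.1, 24.3 and 23.6 in DlaeA, 28.9, 24.6 and 25.9 in H2BK123A and 82.3, 85.2 and 84.2 in H2BK131A. WT did not overlap with any mutant, and the changes were -0.93 ± 0.13, -0.82 ± 0.13 and 0.81 ± 0.13 (adjusted p = 4.99e-05, 4.10e-04 and 1.27e-04). PDE_08330, complex I assembly factor 2, was at 20.2 ± 6.72 in WT, 9.77 ± 1.33 in H2BK123A (-0.93 ± 0.20, adjusted p = 0.00306) and 46.0 ± 0.657 in H2BK131A (SD, n = 3; 1.21 ± 0.20, adjusted p = 1.95e-04).

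PDE_03732, named as complex I assembly factor 7, rose in all 3 mutants, from 6.12, 12.6 and 9.16 in WT to 15.7 ± 0.572 in DlaeA, 14.7 ± 0.180 in H2BK123A and 29.9 ± 2.11 in H2BK131A (SD, n = 3). Its changes were 0.74 ± 0.18, 0.66 ± 0.18 and 1.63 ± 0.18 (adjusted p = 0.00313, 0.0111 and 7.01e-06), and the H2BK123A call was lost when only those 2 strains were fitted (adjusted p = 0.0601).

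Ubiquinone, the lipid that carries electrons between complexes, is made by the products of the COQ genes. In H2BK131A 6 of these 7 genes were higher and 1 was lower, with a median of 1.33. PDE_01589, named as COQ4, which in yeast holds the synthesis complex together, was at 16.9, 19.9 and 16.8 in WT, 8.69, 10.7 and 11.5 in DlaeA, 21.2, 16.6 and 22.7 in H2BK123A, and 124, 129 and 109 in H2BK131A. Only WT and H2BK123A overlapped. It rose by 2.69 ± 0.14 in H2BK131A (adjusted p = 1.30e-08) and fell by 0.74 in DlaeA (SE 0.14, adjusted p = 4.86e-04). PDE_01859, named as Coq7, which in yeast carries out a late hydroxylation of the ring, went from 39.0 ± 3.69 in WT to 104 ± 1.04 in H2BK131A (SD, n = 3; 1.40 ± 0.09, adjusted p = 8.45e-08).

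The 2 genes named as COQ9, which in yeast is needed for that hydroxylation, moved in opposite directions. PDE_03519 was at 319.6, 180.3 and 279.8 in WT, at 15.4, 11.4 and 15.2 in DlaeA, at 89.2, 70.2 and 75.3 in H2BK123A and at 97.8, 83.8 and 93.9 in H2BK131A. All 9 mutant libraries lay below the 3 WT libraries, and DlaeA below the other 2 mutants, which overlapped. It fell by 4.09, 1.69 and 1.45 on the log2 scale (SE 0.19 each, adjusted p = 6.51e-09, 5.48e-05 and 3.33e-05), and in the deposited scaling was the only member called lower in H2BK131A than in WT (quantile normalization gave 2). PDE_08258 rose in all 3, from 36.2 ± 3.03 in WT to 51.3 ± 3.94, 48.8 ± 0.653 and 145 ± 6.62 (SD, n = 3). Its changes were 0.49, 0.42 and 1.98 (SE 0.09 each), and the calls in DlaeA and H2BK123A were lost with median ratio scaling (0.22 and 0.21, adjusted p = 0.0588 and 0.0849).

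Of the 3 genes named as Coq6, a ring hydroxylase, PDE_08359 was higher in H2BK131A alone, at 106 ± 1.27 against 41.5 ± 3.68 in WT (SD, n = 3; 1.33 ± 0.08, adjusted p = 6.14e-08). PDE_05197, the gene with the conflicting PIL1 description, was at 87.3, 109 and 102 in WT and rose to 133, 122 and 129 in DlaeA, to 199, 190.3 and 202 in H2BK123A and to 154, 186 and 161 in H2BK131A (0.37, 0.99 and 0.75, SE 0.11 each). Its call in DlaeA was lost with both other scalings.

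**Figure D4:**
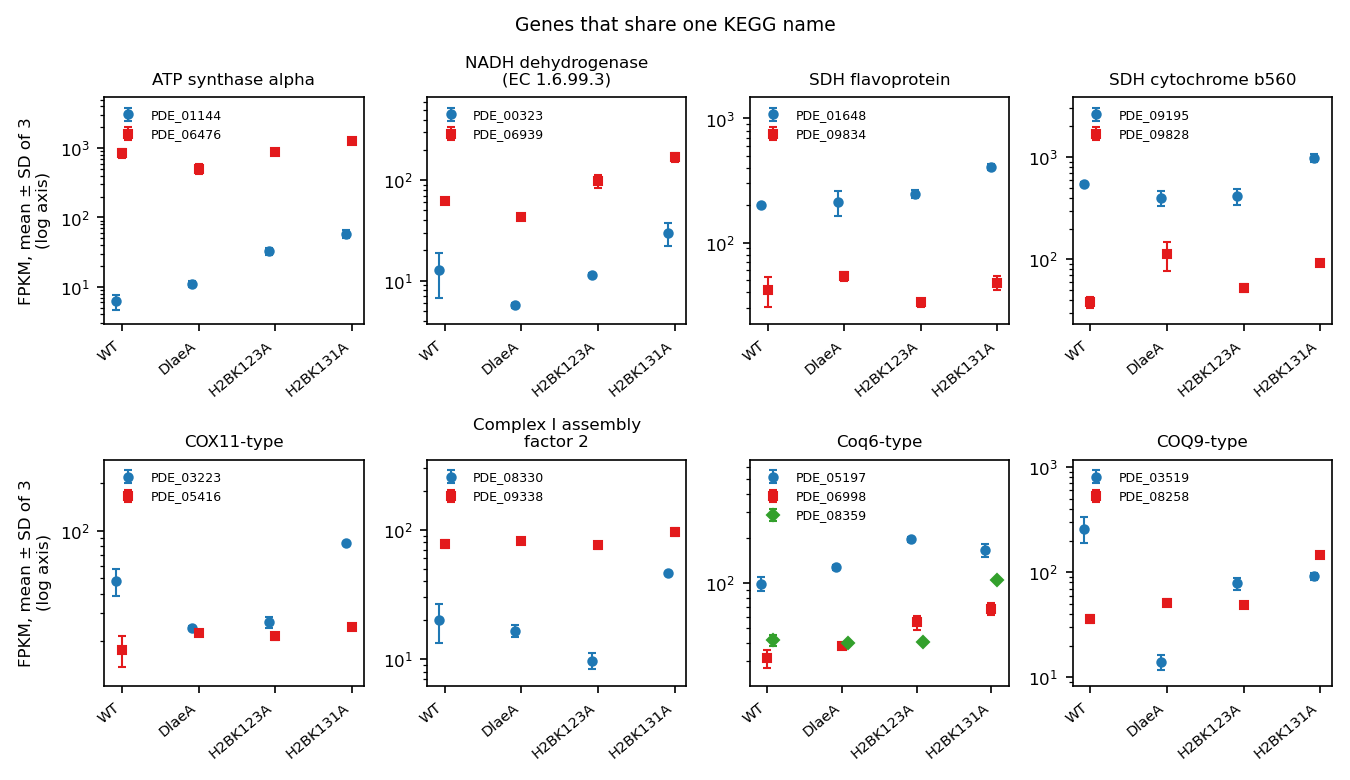
FPKM (vertical axis, logarithmic; mean of 3 libraries ± SD) of the members that share a KEGG name, in 4 strains; each panel is a name and each colour a gene. The ATP synthase alpha genes differ in level (6.14 and 857 in WT), and the COQ9 genes cross, PDE_03519 being the higher in WT and PDE_08258 in H2BK131A.

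In all, 8 names were shared by 17 members, and whether the authors' counting split reads between similar genes is not given in the sources used here, so values of such genes are uncertain to that extent. The members lay at scattered locus numbers, with 3 pairs at consecutive numbers. These pairs were PDE_02664 with PDE_02665, PDE_06934 with PDE_06935, and PDE_07279 with PDE_07280. The last pair joins the ATP synthase beta gene, which rose by 0.86 in H2BK131A, and complex IV subunit 4, which rose by 2.05.

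Between the mutants, H2BK131A was higher than H2BK123A for 74 of the 83 genes and lower for none in limma (75 had an unadjusted p under 0.05, and quantile normalization gave 69 higher and 1 lower), with a median of 0.81 against -0.05 over all tested genes. Of all tested genes, 32.9% were called higher and 35.8% lower. H2BK131A was higher than DlaeA for 73 genes and lower for 1, with a median of 1.04 against -0.08, where 36.2% of all tested genes were called higher and 41.3% lower. Without DlaeA replicate 1 these counts were 73 and 3, and with quantile normalization 76 and 2. PDE_01589 had the second largest difference between H2BK131A and DlaeA, 3.44 ± 0.14 (adjusted p = 9.58e-10), after PDE_08885 with 3.58 ± 0.17 (adjusted p = 4.15e-09). H2BK123A was higher than DlaeA for 29 genes and lower for 8, with a median of 0.18 against -0.07, where 28.1% of all tested genes were called higher and 33.1% lower. Complex IV accounted for 5 of these 29, and complex I for 8 with none lower. Without DlaeA replicate 1 the members' counts were 22 higher and 11 lower with a median of 0.10, complex IV had 3 higher, complex III 1 in place of 3, and complex I 5 higher and 2 lower. PDE_03519 was higher in H2BK123A than in DlaeA by 2.41 ± 0.19 (adjusted p = 7.02e-07).

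**Figure D5:**
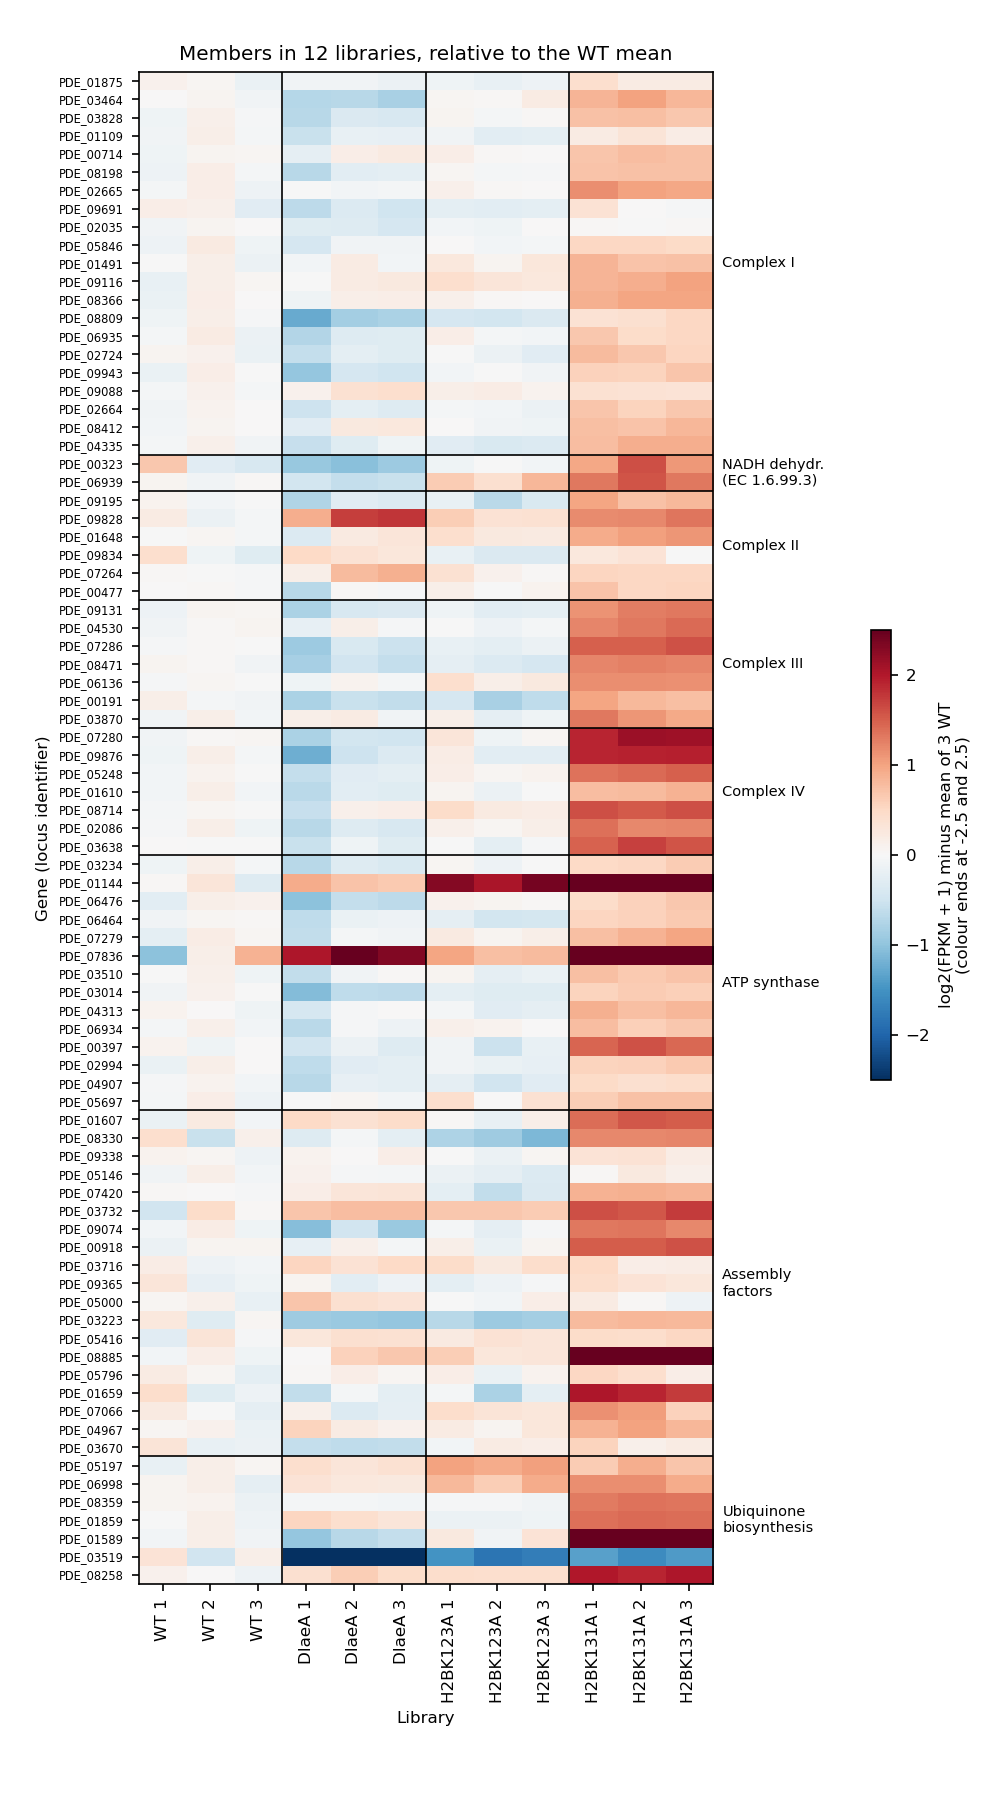
Log2(FPKM + 1) minus the mean of the 3 WT libraries (colour, ending at -2.5 and 2.5) of the 83 members (rows, by group) in the 12 libraries (columns, by strain). The H2BK131A columns are red for nearly all rows, and DlaeA 1 is the bluest of the DlaeA columns. PDE_03519 is the row that is blue in all 3 mutants, and it reaches the end of the colour scale in DlaeA.

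One library stood apart for these genes. DlaeA replicate 1 was the lowest of its strain for 58 of the 83 genes, by a median of 0.29 on the log2 scale below the strain mean, while over all genes its median difference was 0.05. Without it, 43 members were called in DlaeA against WT in place of 51, 16 higher and 27 lower, and the median was -0.12. WT replicate 2 was the highest of its strain for 55 members (median difference 0.15, against 0.18 over all genes), and without it 50 were called, 17 higher and 33 lower.

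Markers of conidia and other asexual structures, which a mycelial sample can hold, differed between strains as well. Of these 6 genes, 4 were higher and 2 lower in DlaeA than in WT, none was called in H2BK123A in limma (1 at an unadjusted p under 0.05), and 4 were lower and none higher in H2BK131A. Their summed FPKM was 573 to 4902 in WT, 1298 to 1458 in DlaeA, 987 to 1186 in H2BK123A and 102 to 545 in H2BK131A. These sums mix markers that moved in opposite directions. PDE_09236, named as scytalone dehydratase of pigment synthesis, was at 0.71, 0.71 and 1.39 in H2BK131A, at 1.45, 1.83 and 0.10 in DlaeA and at 4451, 439.7 and 3834 in WT. By contrast, the DlaeA means of PDE_00087 (BrlA) and PDE_03008 (FlbD) were 435 and 371, against 18.1 and 100.1 in WT. The H2BK131A sum lay mostly in PDE_01188 (DIT1), at 92.7, 537 and 420.3, which overlapped with WT. Within WT, replicate 2 had 573 of these markers' summed FPKM against 4902 and 4187, a gap that lay mostly in PDE_09236. PDE_01188, named as DIT1, was also low in that library, at 5.93 against 376 and 164. PDE_03008, named as FlbD, was at 98.2 there, between 63.8 and 138 in the others. The members' share was 1.66% in WT replicate 2 and 1.53% and 1.63% in the others. That library was the highest of its strain for 55 members (median difference 0.15, against 0.18 over all genes). The part of these markers in the results was not tested.

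Other genes of the pathway, from lists that leave out the 83 members, were read in the same fit. The gene for cytochrome c, PDE_08701, which carries electrons from complex III to complex IV, was at 269.9, 159 and 205 in WT and at 752, 844 and 787 in H2BK131A (1.94 ± 0.17, adjusted p = 8.48e-07), and it fell by 0.56 in DlaeA (SE 0.17, adjusted p = 0.01000). PDE_00751, named as a non-proton-pumping NADH:ubiquinone reductase, a single-protein bypass of complex I, was at 15.5, 17.0 and 19.1 in WT and at 83.4, 107 and 107 in H2BK131A (2.45 ± 0.13, adjusted p = 1.28e-08). No gene was found under the name of alternative oxidase. The search for cytochrome c, its peroxidase, its heme-lyase and cytochrome-dependent lactate dehydrogenases found 16 genes, of which 6 were higher and 5 lower in H2BK131A (median 0.09). As 11 of the 16 are lactate dehydrogenases, this median says little of cytochrome c itself. From WT to H2BK131A, the mean of the heme-lyase genes PDE_03631 and PDE_05781 went from 41.3 to 87.3 and from 37.2 to 75.2. The mean of the peroxidase genes PDE_05494 and PDE_08098 went from 369 to 287 and from 63.2 to 38.2. The search for flavoprotein and glycerol phosphate electron entry found 6 genes, of which 4 were higher and none lower (median 0.59). PDE_00842 and PDE_04537 among them are named as glycerol-3-phosphate dehydrogenase (NAD+), a name that does not place them in electron entry to ubiquinone. Their means went from 58.5 to 62.3 and from 55.7 to 145.

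Of 8 genes of the pyruvate dehydrogenase complex and its kinase, which feeds carbon into the citric acid cycle, 7 were higher in H2BK131A and none lower, with a median of 1.43; PDE_02440, the E1 alpha subunit, went from a mean of 93.7 to 364. Of 21 genes of mitochondrial protein import, 18 were higher and none lower (median 0.80). The search for mitochondrial carriers found 35 genes, of which 26 were higher and 4 lower (median 0.84). PDE_03000 and PDE_09123 among them are named as peroxisomal carriers, and their means went from 23.5 to 38.8 and from 66.7 to 19.8. The extremes were a phosphate carrier, PDE_03205 (3.14 ± 0.15), and PDE_08879, named as an oxoglutarate carrier. PDE_08879 was at 92.5, 349 and 113 in WT and at 0.46, 1.33 and 0.96 in H2BK131A (-6.36 ± 0.43, adjusted p = 1.04e-07). The search for citric acid cycle enzymes found 24 genes, 8 of them named for another enzyme such as 3-isopropylmalate dehydrogenase, and 18 were higher and 1 lower (median 1.02). Of the 2 citrate synthase genes, PDE_09135 rose (2.13 ± 0.17) while PDE_03487 was not called in H2BK131A (-0.13 ± 0.24) but rose in DlaeA (1.84 ± 0.24). In DlaeA against WT, the import genes had 3 higher and 3 lower, the pyruvate dehydrogenase genes 3 and 3, the carriers 13 and 6, the citric acid cycle search 12 and 5, the cytochrome c search 5 and 8 (median -0.24), and flavoprotein and glycerol phosphate entry 5 and none (median 0.68). In H2BK123A the same lists had 3 and 3, 3 and none, 10 and 6, 13 and 2, 6 and 2, and 2 and none. Of all tested genes, 46.3% were called higher and 23.6% lower in DlaeA, 33.5% and 13.1% in H2BK123A, and 40.6% and 30.2% in H2BK131A. In DlaeA the import genes (14.3% and 14.3%) and the carriers (37.1% and 17.1%) lay below these shares in both directions. The citric acid cycle search (50.0% and 20.8%) lay near them.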

How the data were processed

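Per the labels' protocols, digital gene expression libraries were made from tags next to CATG sites; the deposited table holds FPKM, per the file headers, whose per-kilobase scaling is unusual for tags. Aligner, counting tool, build and annotation: not given in the sources used here. Depth is unknown, and no count model was used; the smallest FPKM steps of 117 low genes put the libraries' relative values at 1.000 to 1.029. FPKM were transformed to log2(FPKM + 1) and fitted with limma 3.58.1 (R 4.3.3; strain as the only term, 12 libraries, two-sided, with a trended prior variance and 8 residual degrees of freedom, Benjamini-Hochberg within each of 6 comparisons). The 500 genes with FPKM of 1 or more in fewer than 3 libraries were not tested. The script was checked on simulated data. Alternatives were pseudocounts of 0.1 and 5, other filters, median ratio and quantile scaling, the compared strains alone, no trend, a replicate block and leaving out each library; averaging DlaeA 2 and 3 was added after seeing the data. Members and lists were chosen with earlier results of these data known. Named within each group and comparison were the called genes with the largest rise and fall, those called alike in all mutants, complex II and ATP synthase catalytic subunits and the highest gene; others named in the text, such as those not called, were chosen after their values were seen. The 2 genes named NADH dehydrogenase (EC 1.6.99.3) matched no group pattern and form their own group. No PDE identifier was in the reference table (0 matched), so no coordinates or sequences are given.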

Additional observations from a re-analysis of the deposited data

How the results depend on the processing

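The number of members called moved by over 1.5 times in H2BK123A against WT alone, where 17 calls became 33 with median ratio scaling and 26 with quantile normalization. Medians moved with these scalings to -0.51 and -0.33 in DlaeA against WT, to -0.24 and -0.17 in H2BK123A against WT, to 0.67 and 0.58 in H2BK131A against WT and to 1.15 and 0.98 in H2BK131A against DlaeA, and with quantile normalization to 0.67 in H2BK131A against H2BK123A. These scalings shift the median of all genes by construction. Averaging DlaeA 2 and 3 gave -0.33 in DlaeA against WT. Leaving out 1 library gave 43 to 50 calls and medians of -0.31 to -0.12 in DlaeA against WT, 12 to 18 calls in H2BK123A, 71 to 78 in H2BK131A, and medians of 0.99 to 1.08 in H2BK131A against DlaeA and 0.10 to 0.23 in H2BK123A against DlaeA. Calls kept under all alternatives numbered 4 higher and 25 lower in DlaeA, 4 and 5 in H2BK123A, and 57 and 1 in H2BK131A, each against WT. Of the results for 37 named members, 3312 stayed on their side of the threshold, 87 lost a call, 42 gained one and 0 reversed. With the replicate number as a block, 48, 17 and 76 members were called in DlaeA, H2BK123A and H2BK131A against WT. Same-numbered libraries correlated at -0.22 to 0.21. With 3 libraries a strain, such values cannot show whether the numbers pair the samples. Unknown depth and 3 libraries a strain limit the precision, and WT varied most over all genes (median log2 SD 0.223, mutants 0.111 to 0.124). Over the members DlaeA varied most (0.186), with WT at 0.134, H2BK123A at 0.103 and H2BK131A at 0.083.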

Other observations

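A further 8 genes match the search but carry more than 1 KEGG name, so they were not counted as members. PDE_08337, named both for a p24 family protein and for succinate dehydrogenase assembly factor 2, was at 48.1 ± 6.02 in WT, 79.2 ± 2.94 in DlaeA and 117 ± 4.45 in H2BK131A (SD, n = 3), and was called higher in both mutants by limma (0.72 and 1.27, adjusted p = 8.22e-05 and 5.72e-07). PDE_07494, named for a mannosyltransferase and for cytochrome c oxidase assembly factor 2, rose in H2BK131A (1.39 ± 0.13, limma adjusted p = 1.73e-06). PDE_02399, named for an acylglycerone phosphate reductase and for COQ9, was at 62.3 ± 33.8 in WT, 5.02 ± 0.606 in DlaeA, 13.4 ± 0.556 in H2BK123A and 39.3 ± 2.45 in H2BK131A (SD, n = 3). It fell in DlaeA (-3.26, limma adjusted p = 9.37e-07) and H2BK123A (limma adjusted p = 1.90e-04) and was not called in H2BK131A (-0.52, adjusted p = 0.114). PDE_01209, named for both kinds of NADH dehydrogenase, was at a mean of 0.160 in WT and at 2.53 ± 0.710 in DlaeA and 2.83 ± 0.330 in H2BK131A (SD, n = 3). The other 4 changed by less than 1 on the log2 scale in each mutant. Among them was PDE_08810, named for Fe-S protein 3 of complex I, like PDE_08809, and for a polyketide synthase. Unlike PDE_08809, it was higher in DlaeA than in WT (0.44 ± 0.14, limma adjusted p = 0.0138) and was not called in the H2B mutants.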
